A study of Mus musculus with 55 samples.

Results

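Triolein, trilinolein and trilinolenin are triglycerides whose 3 acyl chains all have 18 carbons and that differ in the number of double bonds in each chain, which is 1 in triolein, 2 in trilinolein and 3 in trilinolenin. The comparison described here asked which heart genes changed with that number in mice without PPARα, a nuclear receptor that senses fatty acids. It used the 15 arrays of PPARα-null hearts (KO) given 1 of these oils, 5 per oil, out of 55 arrays in the study, and took for each gene the linear slope of its log2 signal per double bond. No control array entered the slope. The arrays were chosen by genotype and oil alone, not by any measured value.

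All mice were male Sv129, each array held the RNA of 1 whole heart, and each heart was taken 6 h after a single gavage of 400 µL that followed a 4 h fast. For 2 weeks before, all mice had eaten a purified diet in which olive oil took the place of corn oil. KO mice carried PPARα-/- alleles on the 129S4/SvJae background and wild-type (WT) mice were 129S1/SvImJ, so genotype and substrain cannot be told apart. The labels give the age as 9 to 12 weeks in 1 field and as 2 to 6 months in another. Beside the 15 KO arrays, 13 WT arrays of the same oils (4 triolein, 5 trilinolein, 4 trilinolenin), 5 KO control arrays and 5 KO arrays of tridocosahexaenoin, whose chains have 22 carbons and 6 double bonds, were used for comparison. The control gavage was 0.5% carboxymethyl cellulose per the protocol, while another field says none. The labels do not say which isomer of linolenic acid the trilinolenin held.

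A gavaged triglyceride is split in the gut, its fatty acids reach the heart in lipoproteins, and the heart burns most of them. Polyunsaturated fatty acids also bind nuclear receptors, lower lipogenic transcription and are easily oxidised at the carbons between their double bonds. The oxidation products can free the transcription factor NRF2, which raises genes of glutathione and heme metabolism. PPARα is the main fatty acid receptor of heart muscle, and without it fatty acids can still act through other receptors and through their own metabolism.

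The 15 arrays were alike in range. Their median log2 signal lay between 2.56 and 2.61, the share of probe sets with a linear signal over 20 was 29.0% to 30.2%, and pairs of arrays correlated at 0.992 to 0.996. Ppara, the disrupted gene, was read by 3 probe sets, on which 13, 14 and 9 of the 15 KO arrays lay below every one of the 25 WT arrays; where these probes lie relative to the disrupted part was not used here. All 12 cardiomyocyte markers were bright, with a median slope of 0.00047, and none of the 8 lymphocyte, 5 neutrophil or 6 lung markers was bright. The 3′ minus 5′ difference of the Actb probe sets, which is larger where RNA is less intact, fell by 0.0357 per double bond (exact permutation test, two-sided, p = 0.0443, and up to 0.118 with single arrays left out). Its values were 0.725 to 0.844 after triolein, 0.669 to 0.821 after trilinolein and 0.646 to 0.746 after trilinolenin. The same measure for Gapdh had a slope of -0.00199 (exact permutation test, two-sided, p = 0.859). The part of RNA integrity in the slopes below was not tested. A log2 signal of whole tissue cannot tell fewer cells of a type from less RNA per cell.

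The double-bond slope passed the test for 47 genes, 0.571% of the 8237 that were bright enough to be tested (limma, adjusted p under 0.05, Benjamini-Hochberg over all tested genes). Of these, 25 rose (0.304%) and 22 fell (0.267%) as the number of double bonds grew, and 18 differed by more than 1.5-fold between trilinolenin and triolein. At an unadjusted p under 0.05 there were 1086 genes (13.2%). The rising genes were led by Hmox1, Chac1, Rasd1, Arrdc3 and Fam214a, and the falling genes by Adam19, Rasl11b, Ror1, Siah2 and Slc38a2. Of these, Ror1 and Siah2 were dim and passed the brightness filter only with arrays outside these 15 counted. The size of the slope ranged from 0.141 to 1.51 log2 units per double bond, with a median of 0.261, against a median of 0.0429 over all tested genes. In all 47 genes the 5 triolein hearts and the 5 trilinolenin hearts did not overlap, a separation seen in 302 of all tested genes (3.67%) and measured on the same contrast as the slope. Leaving out single arrays moved the number of called genes between 19 and 72. It was 20, 26 and 19 without triolein replicates 1, 2 and 4, it was 30 and 21 without trilinolenin replicates 3 and 5, and it was 72 without trilinolein replicate 4. The 15 genes called whichever array was left out were Hmox1, Rasd1, Arrdc3, Fam214a, Aqp1, Sema3g, Tspyl4, Neat1, Slc17a5, Adam19, Rasl11b, Ror1, Slc38a2, Gimap4 and Slc4a4. Of these, Hmox1, Arrdc3, Aqp1, Adam19, Slc38a2 and Gimap4 were also called under all 10 other settings of filter, probe sets, normalization and model. The call was kept in 9 of the 10 for Rasd1, Fam214a, Sema3g, Tspyl4, Neat1 and Rasl11b. It was kept in 8 for Slc4a4 and in 7 for Slc17a5 and Ror1, counting a gene left untested as lost. For the other called genes, the number of the 15 fits without 1 array that kept the call is given below.

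**Figure D1:**
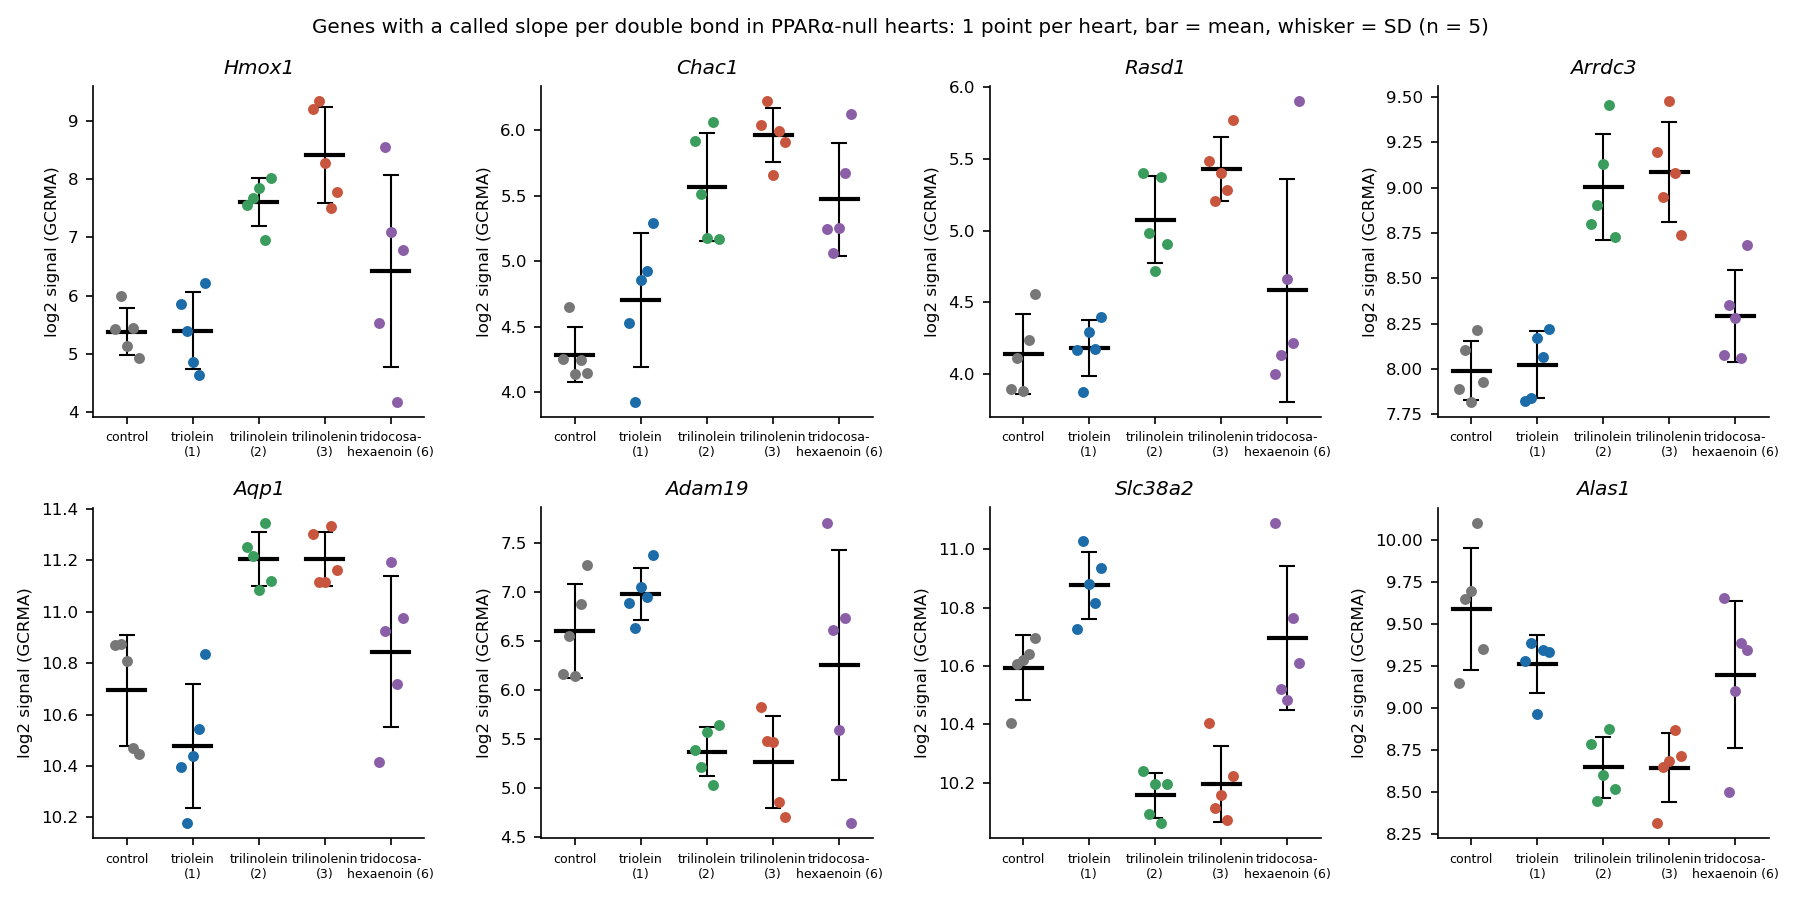
Log2 signal of 8 genes with a called slope (vertical axes, each with its own range) in the 5 KO groups, with double bonds per chain in brackets; points are hearts, bars are means and whiskers are SD (n = 5). The triolein hearts lie apart from the trilinolenin hearts in each panel, and Hmox1 climbs from a mean of 5.39 to 7.61 and 8.42. Most trilinolein hearts lie within the trilinolenin range, except for Rasd1 and Chac1, where most lie below it.

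Heme metabolism held the largest rise and 1 of the falls. Hmox1, heme oxygenase 1, which breaks heme down to biliverdin, iron and carbon monoxide, had log2 signals of 5.85, 5.40, 4.86, 4.63 and 6.21 after triolein, 7.55, 7.67, 7.85, 6.95 and 8.01 after trilinolein, and 9.20, 9.34, 8.27, 7.50 and 7.77 after trilinolenin. Every trilinolein and trilinolenin heart lay above every triolein heart, and the trilinolein and trilinolenin hearts overlapped. The slope was 1.51 ± 0.19 (SE, n = 5 per oil, adjusted p = 0.0013), which is 8.14-fold between the outer oils. The KO controls, at 5.38 ± 0.41 (SD, n = 5), lay at the triolein level of 5.39 ± 0.66. From triolein to trilinolein Hmox1 rose by 2.22 ± 0.37 (adjusted p = 0.0213, over all genes and the 3 pairs), and from trilinolein to trilinolenin it differed by 0.81, with a 95% interval of 0.02 to 1.60 and an adjusted p of 0.51.

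Alas1, which makes the first and rate-limiting step of heme synthesis, went the other way. Its signals were 9.28, 9.39, 8.97, 9.35 and 9.34 after triolein, 8.79, 8.45, 8.60, 8.88 and 8.52 after trilinolein, and 8.31, 8.65, 8.69, 8.87 and 8.71 after trilinolenin. All 10 hearts of the polyunsaturated oils lay below the 5 triolein hearts, and the polyunsaturated oils had the same mean, 8.65. The slope was -0.31 ± 0.06 (SE, limma adjusted p = 0.0208), and the call was lost without triolein replicate 1, 2 or 4 (12 of 15 fits kept it, adjusted p up to 0.0613). It was also lost with probe set means (slope -0.21, adjusted p = 0.0767), the 12-group fit (0.163), linear regression (0.071) and the replicate block (0.0523), and the second bright probe set of Alas1 had a slope of -0.11. Among the 17 tested genes of heme and iron handling these were the 2 that passed, with a list median of -0.0128. The transferrin receptor Tfrc had a slope of -0.27 and the ferritin heavy chain Fth1 one of 0.03, neither of which passed; both were picked after their values were seen.

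Of 24 tested targets of NRF2, the regulator of antioxidant genes, Hmox1 was the 1 called gene, 8 had an unadjusted p under 0.05 (13.2% over all genes), 14 slopes were positive, and the median was 0.0308 against -0.00564 over all genes. Gsta3, a glutathione transferase, had values of 4.37, 3.73, 4.56, 4.59 and 5.08 after triolein, 5.05, 4.93, 5.25, 6.50 and 4.71 after trilinolein, and 5.50, 5.56, 5.27, 5.19 and 5.57 after trilinolenin. Its outer groups did not overlap, yet its slope of 0.48 ± 0.14 did not pass (limma adjusted p = 0.143). Gclm, the modifier subunit of glutathione synthesis, picked after its value was seen, had means of 7.31, 7.91 and 7.94 and a slope of 0.31 ± 0.10 (adjusted p = 0.175). Other NRF2 targets had slopes of 0.14 ± 0.05 for the microsomal glutathione transferase Mgst1, 0.12 ± 0.05 for Gclc, the catalytic subunit of glutathione synthesis, 0.03 ± 0.04 for the thioredoxin reductase Txnrd1 and -0.06 ± 0.10 for the quinone reductase Nqo1, none of which passed. Mt2, a metallothionein that binds zinc and copper, had a slope of 0.41 ± 0.11 (adjusted p = 0.1). None of the 10 tested metallothionein and zinc transporter genes passed.

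Of the integrated stress response list, Chac1 rose and Ddit3 fell. Chac1, an enzyme that degrades glutathione and a known target of the transcription factors ATF4 and CHOP, read 4.53, 3.93, 4.85, 4.92 and 5.29 after triolein, 5.91, 5.51, 5.18, 6.07 and 5.17 after trilinolein, and 6.04, 6.22, 5.66, 5.99 and 5.91 after trilinolenin. The trilinolenin hearts were all above the triolein hearts, and the highest triolein heart lay within the trilinolein range. The slope was 0.63 ± 0.11 (limma adjusted p = 0.0208), a 2.40-fold difference between the outer oils, and was called in 12 of 15 fits, not without triolein replicate 1 or trilinolenin replicate 2 or 5 (adjusted p up to 0.0612). KO controls were lower still, at 4.29 ± 0.21 (SD, n = 5).

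Ddit3 encodes CHOP itself, and it fell. It read 6.92, 7.21, 6.85, 6.89 and 7.16 after triolein, 6.60, 6.66, 6.48, 6.48 and 6.57 after trilinolein, and 6.60, 6.75, 6.33, 6.53 and 6.14 after trilinolenin. No heart of either polyunsaturated oil reached the triolein range, and the slope was -0.27 ± 0.05 (limma adjusted p = 0.0271, called in 9 of 15 fits, up to 0.0831). Slc38a2, a transporter that brings small neutral amino acids into the cell and is raised when they run short, is not on that list and fell as well. It read 10.73, 11.03, 10.88, 10.81 and 10.94 after triolein, 10.24, 10.09, 10.19, 10.06 and 10.19 after trilinolein, and 10.40, 10.11, 10.16, 10.07 and 10.22 after trilinolenin. Its slope was -0.34 ± 0.04 (limma adjusted p = 0.000902), and it differed by -0.72 ± 0.07 over the first step and by 0.04 over the second, with a 95% interval of -0.12 to 0.19. The KO controls had a mean of 10.59 ± 0.11, between triolein and the polyunsaturated oils.

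Of the 11 tested genes of the integrated stress response list, 1 rose, 1 fell, 7 slopes were negative and the median was -0.0452. Atf4, its central transcription factor, had a slope of -0.03 ± 0.06 and Asns, asparagine synthetase, one of 0.00 ± 0.05, and neither passed. Atf3 had a slope of -0.32 ± 0.21, and Ddit4, which curbs mTOR, had the largest slope of the list, 0.66 ± 0.16, with an adjusted p of 0.0782. These were named after their values were seen. The unfolded protein response list had 14 of 16 negative slopes with a median of -0.0614, and none passed.

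Promoter windows of Chac1, Ddit3 and Slc38a2 are shown because Chac1 moved against the others; the 3 were picked after their slopes were seen. Each runs from 250 bases before to 50 bases after the start in RefSeq (mouse build GRCm38.p6), 5′ to 3′ on the gene's strand, in lower case, with any match to the core of the amino acid response element in capitals. The Chac1 window is chr2:119350992-119351291 on the plus strand, the Ddit3 window chr10:127290543-127290842 on the plus strand, and the Slc38a2 window chr15:96699679-96699978 on the minus strand.
Chac1: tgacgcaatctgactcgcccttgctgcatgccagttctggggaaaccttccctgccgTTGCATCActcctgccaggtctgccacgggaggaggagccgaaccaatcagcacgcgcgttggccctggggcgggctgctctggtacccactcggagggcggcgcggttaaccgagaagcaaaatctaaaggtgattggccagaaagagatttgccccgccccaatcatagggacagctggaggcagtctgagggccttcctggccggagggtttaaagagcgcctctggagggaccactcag
Ddit3: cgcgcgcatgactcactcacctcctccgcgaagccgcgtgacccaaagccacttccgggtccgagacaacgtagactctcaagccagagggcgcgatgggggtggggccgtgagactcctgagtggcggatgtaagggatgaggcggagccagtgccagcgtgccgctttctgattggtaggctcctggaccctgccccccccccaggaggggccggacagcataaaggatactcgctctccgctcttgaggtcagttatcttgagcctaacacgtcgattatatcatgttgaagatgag
Slc38a2: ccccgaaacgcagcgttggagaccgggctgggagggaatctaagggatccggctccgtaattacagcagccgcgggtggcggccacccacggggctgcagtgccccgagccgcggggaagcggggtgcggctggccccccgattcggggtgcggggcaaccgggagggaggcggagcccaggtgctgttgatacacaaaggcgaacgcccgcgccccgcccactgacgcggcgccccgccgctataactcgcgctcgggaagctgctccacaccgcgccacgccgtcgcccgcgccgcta
The core was searched on both strands as TGATGNAA, and the match in Chac1 is on the strand opposite to the gene, at offset -193 from the start. Windows were found for 38 of the 47 called genes, not for Hmox1, Rasd1, Cdkn1c, Gpcpd1, Neat1, Klhl24, Siah2, Mtss1 or the gene with a clone name. The core was in 1 of the 38 (2.63%), Chac1, and in 3.97% of all 32851 windows. The antioxidant response element core TGACNNNGC was in 7 of the 38 (18.4%), against 12.4% of all windows, the FoxO site GTAAACA in 1 (Adam19) against 3.65%, and the glucocorticoid response element core ACANNNTGT in 1 (Aox1) against 6.85%. The motifs were searched separately and their matches may overlap. A match describes letters and is not a site. Bases outside these windows, further upstream or within the gene, were not searched. The lack of a match in the Ddit3 and Slc38a2 windows therefore does not show that these genes lack the element.

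After Hmox1 and Chac1, the rises with the largest slopes were those of Rasd1, Arrdc3 and Fam214a. Rasd1, a small G protein known for its induction by dexamethasone, read 4.17, 3.88, 4.29, 4.18 and 4.40 after triolein, 5.40, 4.98, 4.72, 5.37 and 4.91 after trilinolein, and 5.48, 5.20, 5.40, 5.28 and 5.77 after trilinolenin. The triolein hearts, with a mean under the brightness minimum of 4.32, lay below all others, and the slope was 0.62 ± 0.07 (limma adjusted p = 0.000902). Arrdc3, an arrestin-domain protein that acts on adrenergic receptors and is a FoxO target, read 7.82, 7.84, 8.17, 8.06 and 8.22 after triolein, 8.80, 8.90, 9.13, 9.46 and 8.73 after trilinolein, and 9.20, 8.95, 9.48, 9.08 and 8.74 after trilinolenin. The polyunsaturated oils overlapped fully and stood clear of triolein; the slope was 0.53 ± 0.07 (adjusted p = 0.00279), with 2.09-fold between the outer oils.

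Pik3ip1, which restrains phosphoinositide 3-kinase, read 8.75, 8.33, 8.80, 8.76 and 9.00 after triolein, 9.56, 9.46, 9.19, 9.28 and 8.98 after trilinolein, and 9.28, 9.45, 9.30, 9.31 and 9.17 after trilinolenin. The lowest trilinolein heart reached down into the triolein range and no trilinolenin heart did. The slope was 0.29 ± 0.06 (limma adjusted p = 0.0431), and Pik3ip1 was called in 4 of the 15 fits that left out an array (adjusted p up to 0.0936). Fam214a, a gene of little-known function, read 8.26, 7.96, 8.50, 8.48 and 8.75 after triolein, 9.05, 9.12, 8.97, 9.65 and 8.84 after trilinolein, and 9.18, 9.36, 9.34, 9.22 and 9.40 after trilinolenin. Its groups were apart from triolein in every heart, with a slope of 0.46 ± 0.07 (adjusted p = 0.0113). Cdkn1c, the cell cycle inhibitor p57, rose by 0.26 ± 0.05 per double bond (adjusted p = 0.0271, called in 9 of 15 fits, up to 0.0825).

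Within the FoxO list of 19 tested genes, Arrdc3 was the 1 called, 16 slopes were positive and the median was 0.142. Among 22 glucocorticoid responsive genes none passed after adjustment, 13 had an unadjusted p under 0.05, 21 slopes were positive and the median was 0.204. The 1 negative slope was that of Nr3c1, the glucocorticoid receptor, at -0.12. Over all tested genes 3783 slopes were positive and 4454 negative, with 13.2% at an unadjusted p under 0.05. Fkbp5, a chaperone of the glucocorticoid receptor and a sensitive marker of its activity, read 8.38, 7.99, 8.19, 8.92 and 9.02 after triolein, 8.53, 8.45, 8.25, 9.49 and 8.60 after trilinolein, and 8.67, 9.02, 9.00, 8.47 and 9.40 after trilinolenin. The groups overlapped, and the slope of 0.21 ± 0.12 did not pass (adjusted p = 0.497). Its other bright probe set had a slope of 0.43. The 15 tested circadian genes had 10 positive slopes and a median of 0.108, with none called. The lists share members, such as Ddit4, Klf15, Per1 and Pdk4.

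**Figure D2:**
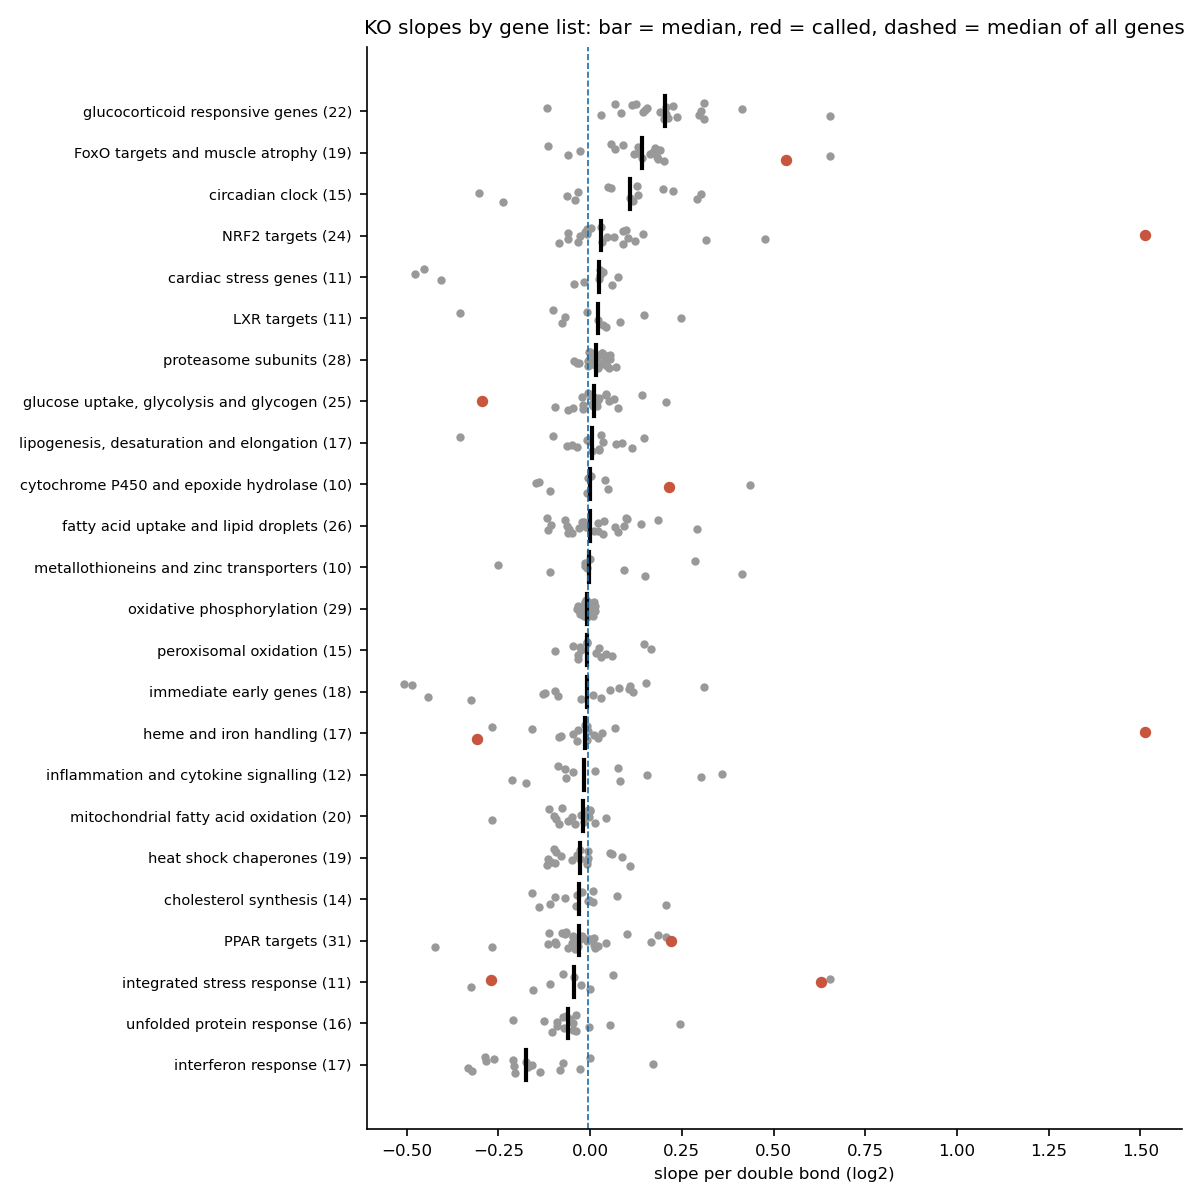
Slope per double bond (log2, horizontal axis) of each tested gene in 24 lists (rows, with the number tested in brackets); red points passed the test, black bars are list medians and the dashed line is the median of all tested genes, -0.00564. The glucocorticoid and FoxO lists have the highest medians, 0.204 and 0.142, the interferon list the lowest, -0.175, and red points are few in each row.

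Aqp1, a water channel abundant in endothelium, read 10.40, 10.18, 10.44, 10.54 and 10.84 after triolein, 11.25, 11.22, 11.09, 11.35 and 11.12 after trilinolein, and 11.30, 11.11, 11.12, 11.33 and 11.16 after trilinolenin. The polyunsaturated groups coincided, with a difference between them of 0.00 and a 95% interval of -0.21 to 0.21, and lay above every triolein heart; the slope was 0.36 ± 0.05 (limma adjusted p = 0.00235). Sema3g, a secreted semaphorin of arterial endothelium, read 6.14, 6.15, 6.44, 6.37 and 6.52 after triolein, 6.81, 6.77, 6.72, 7.04 and 6.52 after trilinolein, and 7.04, 6.96, 6.83, 6.80 and 7.15 after trilinolenin. The lowest trilinolein heart matched the highest triolein heart, and the slope was 0.32 ± 0.05 (adjusted p = 0.0113).

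Plxnd1, a semaphorin receptor of endothelium, read 7.22, 7.50, 7.41, 7.35 and 7.09 after triolein, 7.08, 6.89, 6.96, 6.64 and 7.17 after trilinolein, and 6.89, 6.79, 6.63, 6.93 and 6.26 after trilinolenin, a slope of -0.31 ± 0.06 (limma adjusted p = 0.0431). Trilinolein overlapped both other groups, and Plxnd1 was called in 4 of the 15 fits that left out an array (adjusted p up to 0.115). Emcn, the endothelial sialomucin endomucin, read 8.27, 8.19, 8.05, 8.03 and 8.06 after triolein, 7.78, 7.94, 8.09, 7.64 and 7.90 after trilinolein, and 7.52, 7.85, 7.67, 7.70 and 7.39 after trilinolenin. Its steps were alike in size, -0.25 each, and its slope was -0.25 ± 0.05 (adjusted p = 0.0271, called in 9 of 15 fits, up to 0.0825).

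Emcn was the 1 called gene of 12 endothelial markers, of which 8 had negative slopes, with a median of -0.0242. Their summed linear signal ranged from 3578 to 3791 after triolein, 3422 to 3824 after trilinolein and 3400 to 3958 after trilinolenin, so these ranges overlapped throughout. Smooth muscle and pericyte markers had 7 of 9 positive slopes, a median of 0.119 and none called, with sums of 4467 to 4995 after triolein, 4255 to 5160 after trilinolein and 4884 to 5895 after trilinolenin. Atrial muscle markers had 5 of 5 positive slopes, a median of 0.190, none called, and sums that overlapped, from 5699 to 19200 after triolein and from 8309 to 16664 after trilinolenin. Aqp1, Sema3g and Plxnd1 are not on the endothelial list, and the part of these cells in any of the called genes was not tested.

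Gimap4, a GTPase of the immunity-associated family known from lymphocytes, read 8.32, 8.37, 8.32, 8.36 and 8.14 after triolein, 7.85, 7.86, 8.13, 7.82 and 7.94 after trilinolein, and 7.86, 7.63, 7.78, 7.71 and 7.70 after trilinolenin. Triolein lay above every other heart by a narrow margin, and the slope was -0.28 ± 0.04 (limma adjusted p = 0.0013). The 8 lymphocyte markers were all under the brightness minimum, with the highest value, for Cd8a, at 3.55. Macrophage markers had 9 of 10 negative slopes and a median of -0.0918, none called, with sums of 2440 to 2777 after triolein, 2276 to 2714 after trilinolein and 2157 to 2551 after trilinolenin; their part in the fall was not tested. The interferon response list had 16 of 17 negative slopes and a median of -0.175, with none called and 2 at an unadjusted p under 0.05. In WT hearts its median slope was -0.0112.

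Adam19 showed the largest fall. It encodes a membrane metalloprotease that cleaves neuregulins and is needed for heart development. It read 6.89, 6.64, 7.06, 6.96 and 7.38 after triolein, 5.39, 5.21, 5.58, 5.03 and 5.64 after trilinolein, and 5.83, 5.48, 5.47, 4.85 and 4.70 after trilinolenin. Every triolein heart was higher than every other heart, and the slope was -0.86 ± 0.10 (limma adjusted p = 0.000902), a signal 3.29-fold higher after triolein than after trilinolenin. KO controls, at 6.61 ± 0.48 (SD, n = 5), lay near triolein, at 6.98 ± 0.27. The second step was -0.10, with a 95% interval of -0.53 to 0.32.

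Other falls concerned signalling and scaffold proteins. Rasl11b, a small Ras-like GTPase, read 8.45, 8.78, 8.51, 8.57 and 8.52 after triolein, 7.79, 7.48, 7.69, 7.60 and 7.97 after trilinolein, and 8.14, 7.74, 8.02, 7.42 and 7.62 after trilinolenin. Its lowest mean was that of trilinolein, 7.71, and the slope was -0.39 ± 0.06 (limma adjusted p = 0.0113). Ror1, a receptor for the Wnt5a ligand, read 4.23, 4.04, 4.13, 4.12 and 4.28 after triolein, 3.26, 3.59, 3.63, 3.59 and 3.41 after trilinolein, and 3.28, 3.62, 3.63, 3.49 and 3.21 after trilinolenin. All 3 means were under the brightness minimum, so its slope of -0.36 ± 0.05 (adjusted p = 0.00218) is not exact in size.

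Siah2, a ubiquitin ligase of the hypoxia response, changed more over the second step than over the first. It read 4.34, 4.56, 4.11, 4.28 and 4.32 after triolein, 3.82, 3.89, 4.22, 3.96 and 4.17 after trilinolein, and 3.32, 3.50, 3.91, 3.31 and 4.02 after trilinolenin. Trilinolein overlapped both other groups, both polyunsaturated means were under the brightness minimum, and the slope was -0.35 ± 0.07 (limma adjusted p = 0.0271, called in 9 of 15 fits, up to 0.0845). The scaffold protein Magi3 fell by 0.34 per double bond ± 0.06 (adjusted p = 0.0208) from 8.85 to 8.28 and 8.17. The microtubule-associated Mtus2 fell by 0.31 ± 0.06 (adjusted p = 0.0263) from 8.97 to 8.49 and 8.34. Magi3 was called in 11 of 15 fits (adjusted p up to 0.0664) and Mtus2 in 10 of 15 (up to 0.0742).

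Some called genes were of energy metabolism. Etfbkmt, which methylates the electron transfer flavoprotein that takes electrons from fatty acid oxidation, read 8.42, 8.28, 8.69, 8.51 and 8.66 after triolein, 9.01, 8.87, 8.85, 9.04 and 8.86 after trilinolein, and 9.02, 8.99, 8.91, 8.84 and 8.98 after trilinolenin. All hearts of both polyunsaturated oils were above triolein, and the slope was 0.22 ± 0.04 (limma adjusted p = 0.0185, called in 12 of 15 fits, up to 0.0612). Pfkfb2, the cardiac enzyme that makes the glycolysis activator fructose 2,6-bisphosphate, read 8.14, 8.23, 8.04, 8.11 and 8.28 after triolein, 7.71, 7.57, 7.50, 7.21 and 7.67 after trilinolein, and 7.75, 7.59, 7.78, 7.21 and 7.53 after trilinolenin. Neither polyunsaturated group reached the triolein range, and the slope was -0.29 ± 0.05 (adjusted p = 0.0263, called in 10 of 15 fits, up to 0.0737). Cyp27a1, a mitochondrial enzyme that hydroxylates sterols, rose by 0.22 ± 0.04 (adjusted p = 0.0271, called in 10 of 15 fits, up to 0.0831) from 7.73 to 8.02 and 8.16. Ppp1r3c, which targets protein phosphatase 1 to glycogen and was picked after its value was seen, fell by 0.26 ± 0.05 (adjusted p = 0.0313) and was called in 7 of 15 fits (up to 0.0949).

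Of 31 tested PPAR targets Etfbkmt was the 1 called (3.23%, against 0.571% of all tested genes), and the median was -0.0296. At the share over all tested genes, most lists of this size would hold no called gene, so a list without one says little. None of 20 genes of mitochondrial fatty acid oxidation passed (median -0.0206), nor any of 15 peroxisomal genes (median -0.00839), 26 genes of lipid droplets and fatty acid uptake (median -0.000843), 17 of lipogenesis (median 0.00571), 14 of cholesterol synthesis (median -0.0290), 11 LXR targets (median 0.0223), 29 subunits of oxidative phosphorylation (median -0.00784) or 28 proteasome subunits (median 0.0166). Among 25 genes of glucose use, Pfkfb2 was the 1 called (4%, median 0.0105). Among 10 genes of the cytochrome P450 list it was Cyp27a1 (10%, median -0.000672). Lists of heat shock chaperones (19 genes, median -0.0270), immediate early genes (18, median -0.00929), inflammation (12, median -0.0169) and cardiac stress (11, median 0.0243) held no called gene.

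The intervals of single lipid genes show what could have been missed. Angptl4, an inhibitor of lipoprotein lipase, had means of 8.24, 8.08 and 8.29 after triolein, trilinolein and trilinolenin, a slope of 0.02 and a 95% interval of -0.25 to 0.29. Cd36, the fatty acid transporter, had a slope of 0.01 with an interval of -0.05 to 0.07, although 2 of its 3 probe sets had slopes of the other sign. The lipid droplet protein Plin2 had a slope of -0.02 with an interval of -0.11 to 0.06, and Plin5 one of -0.07 with an interval of -0.26 to 0.12. Pdk4, which shuts down glucose oxidation, had means of 12.16, 12.55 and 12.57 and an interval of 0.05 to 0.36, with an adjusted p of 0.207.

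Plin4 had a slope of 0.18 with an interval of 0.04 to 0.33 (adjusted p = 0.234). Scd2, a desaturase that makes oleic acid, had means of 8.31, 7.79 and 7.60 and an interval of -0.61 to -0.10 (adjusted p = 0.19), while the interval of Scd1 was -0.30 to 0.59. The thioesterase Acot1 had an interval of -0.75 to -0.09 (limma adjusted p = 0.234), and the uncoupling protein Ucp3 one of -0.29 to 0.16. Both were dim. Ucp3 had means of 4.24, 4.23 and 4.11, all under the brightness minimum of 4.32. Acot1 had means of 5.04, 4.17 and 4.20, the last 2 under it. GCRMA can flatten dim signals, so these 2 intervals do not bound the change reliably. The intervals of the desaturase Fads1 (-0.15 to 0.05), the lipogenic factor Srebf1 (-0.24 to 0.04), the cholesterol synthesis enzyme Hmgcs1 (-0.09 to 0.10, with 2 of 4 probe sets of the other sign) and the cholesterol exporter Abca1 (-0.07 to 0.16) all held 0. The other 2 bright probe sets of Abca1 had slopes of 0.20 and 0.21, outside that interval, against 0.04 for the one used. Ppara itself had an interval of -0.10 to 0.11, and 2 of its 3 probe sets had a slope of the other sign. Cpt1b and Fads2 were not among the tested genes.

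Because the slope rests on the outer oils alone when groups are equal in size, the place of trilinolein was examined separately. Of the 47 called genes, 44 changed more from triolein to trilinolein than from trilinolein to trilinolenin, against 56.2% of all tested genes. The median size of the first step was 0.420 and of the second 0.105 among called genes, and 0.0807 and 0.0641 among all tested genes. The trilinolein mean lay at a median of 0.782 of the way from triolein to trilinolenin (quartiles 0.671 and 0.993), where 0.5 would be an even grading. It lay between the outer means in 39 genes, against 40.2% of all tested genes. In 8 genes it lay beyond trilinolenin, and in none on the far side of triolein. The 47 genes were chosen for a wide gap between the outer means, which by itself favours a middle mean between them. These counts are therefore no test of grading. The 3 genes with a larger second step were Siah2, Mtss1 and Herc1, the last 2 named after their values were seen. When each array was left out in turn, 41 to 46 of the same 47 genes had the larger first step.

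**Figure D3:**
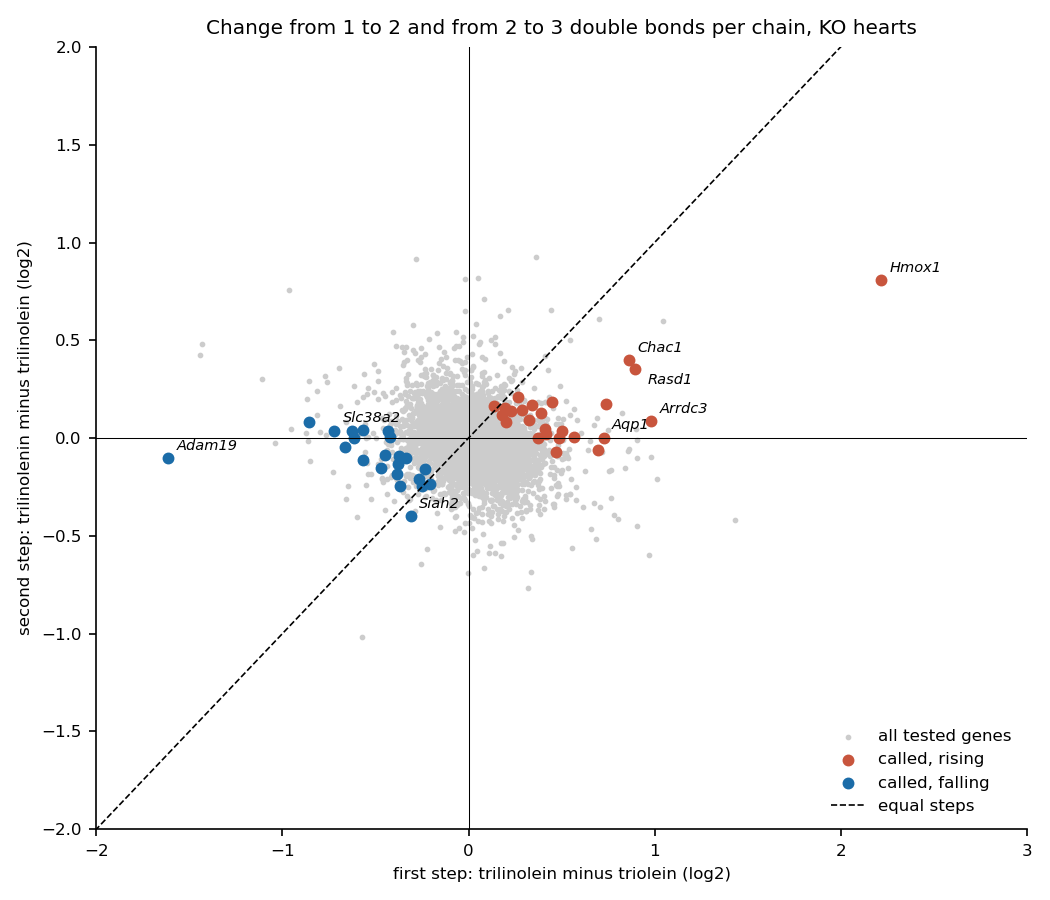
Log2 difference of trilinolein from triolein (horizontal axis) and of trilinolenin from trilinolein (vertical axis) in KO hearts; grey points are the 8237 tested genes, red and blue points the 25 called rises and 22 called falls, and the dashed line marks equal steps. Of the 47 coloured points, 44 lie on the side of a larger first step, with Hmox1 farthest to the right at 2.22 and 0.81.

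The 3 pairs of oils were tested over all genes and pairs together (24711 tests). Trilinolein differed from triolein in 27 genes (0.328% of tested genes), 14 higher and 13 lower, 15 of them by more than 1.5-fold and 19 of them also called for the slope. Trilinolenin differed from triolein in 38 genes (0.461%), 20 higher and 18 lower, all of them called for the slope, which is the same contrast. Trilinolenin differed from trilinolein in 1 gene (0.0121%). At unadjusted p under 0.05 the numbers were 901, 1086 and 357. The 95% interval of the second step had a median half-width of 0.199 among called genes, so smaller differences between the polyunsaturated oils were within error. Departure from a straight line passed in no gene (limma, smallest adjusted p = 0.051), with 484 genes at an unadjusted p under 0.05 (5.88%), 23 of them among the 47 called genes.

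The 1 gene that differed between the polyunsaturated oils was Cadm4, a cell adhesion molecule. It read 5.57, 5.33, 5.58, 5.48 and 5.35 after triolein, 5.62, 5.76, 5.71, 5.77 and 5.77 after trilinolein, and 5.18, 5.43, 5.06, 5.24 and 5.38 after trilinolenin. Trilinolein stood above both others, and trilinolenin fell by 0.47 ± 0.08 from it (limma adjusted p = 0.0175). Its slope over all 3 oils was -0.10 and did not pass (adjusted p = 0.24).

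Iigp1, an interferon-induced GTPase, was also highest after trilinolein. It read 9.10, 8.89, 9.20, 8.93 and 8.96 after triolein, 9.44, 9.85, 9.65, 9.80 and 9.71 after trilinolein, and 9.38, 9.39, 9.45, 9.41 and 9.17 after trilinolenin. The trilinolein mean lay 0.50 ± 0.07 above the line through the outer oils, which had the lowest p of all genes for this test and did not pass (limma adjusted p = 0.051). Slc38a2, at -0.38 ± 0.06 (adjusted p = 0.0944), and Cadm4, at 0.37 ± 0.07 (adjusted p = 0.111), came next.

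Nppb, which encodes the natriuretic peptide BNP, was called for the first step but not for the slope. It read 10.50, 11.12, 10.32, 10.83 and 11.17 after triolein, 9.99, 8.48, 9.23, 9.95 and 9.12 after trilinolein, and 9.87, 10.17, 9.67, 9.48 and 9.98 after trilinolenin. Triolein was above both other groups in every heart, and trilinolein spread the widest. Trilinolein fell by 1.43 ± 0.26 from triolein (limma adjusted p = 0.0332), while the slope was -0.48 ± 0.13 (adjusted p = 0.104). KO controls had a mean of 10.31. Nr4a1, an immediate early gene, had means of 8.34, 7.49 and 7.37 and a slope of -0.48 ± 0.20, which did not pass (adjusted p = 0.303).

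The KO controls, which had no part in the slopes, were set beside the called genes. Their mean lay nearer to triolein than to trilinolenin in 44 of the 47, against 60.3% of all tested genes, and the exceptions were Rgs19, Gtf2b and Zfp810. Tridocosahexaenoin, with more double bonds per chain but longer chains, lay on the trilinolenin side of triolein in 43 of the 47 (67.8% of all tested genes). It lay beyond trilinolenin in none, a share not counted over all tested genes. Both counts are taken from the triolein and trilinolenin means that chose the 47 genes. That choice by itself favours a place between these means, so the counts are no test of this oil. For Hmox1 its hearts read 5.53, 8.55, 7.09, 4.17 and 6.77, spread over more than the whole range of the triolein and trilinolein hearts, with a mean of 6.42 ± 1.65 (SD, n = 5). Chac1 averaged 5.47 ± 0.43 after tridocosahexaenoin, near its trilinolein mean of 5.57. Chain length and double bonds differ together here, so no slope was drawn through this oil.

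Slopes in WT hearts given the same oils had no part in choosing the 47 genes. WT arrays did count in the brightness filter and in the choice of probe set. WT slopes had the same sign as in KO in 46 of the 47, against 63.7% of all tested genes. The exception was Gtf2b, a general transcription factor, at 0.03. Of the 47, 19 were called in WT as well, out of 99 genes called there (1.20%), which is 40.4% of the KO calls and 19.2% of the WT calls. Both shares rest on a WT count that was 19 and 40 without WT triolein replicates 2 and 4, was 35, 31 and 53 without WT trilinolenin replicates 2, 3 and 4, and was 43 to 52 under 3 other settings. Hmox1 read 5.43, 4.22, 6.46 and 5.44 after triolein, 7.76, 7.57, 7.11, 7.25 and 7.28 after trilinolein, and 8.39, 9.18, 7.31 and 8.27 after trilinolenin in WT hearts. As in KO, triolein lay below every other heart, and the WT slope was 1.45 ± 0.22 (limma adjusted p = 0.000866). The KO slope exceeded it by 0.06, with a 95% interval of -0.55 to 0.67.

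Alas1 in WT hearts read 9.45, 10.14, 8.81 and 9.64 after triolein, 8.96, 8.67, 8.70, 8.79 and 8.13 after trilinolein, and 8.38, 8.09, 8.22 and 8.11 after trilinolenin. All WT trilinolenin hearts lay below the WT triolein hearts, and trilinolein overlapped both. The WT slope was -0.65 ± 0.09, larger in size than in KO, and the difference of KO from WT, 0.35 with a 95% interval of 0.08 to 0.61, did not pass (limma adjusted p = 0.966). Adam19 had a WT slope of -0.42 ± 0.12 and a difference of -0.44 (interval -0.75 to -0.12, adjusted p = 0.954). Rasd1 (0.62), Arrdc3 (0.50), Chac1 (0.58) and Fam214a (0.53) had WT slopes near their KO slopes, with 95% intervals of the difference of -0.25 to 0.25, -0.19 to 0.25, -0.30 to 0.40 and -0.30 to 0.14. Emcn, at -0.02 in WT, differed by -0.22 (interval -0.41 to -0.04, adjusted p = 0.999).

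The difference between the KO and WT slopes passed in no gene (limma, smallest adjusted p = 0.189), with 365 at an unadjusted p under 0.05 (4.43%), 6 of them among the 47. The genes of lowest p were Myh11, Cyp4b1 and Tmem71. Myh11, the heavy chain of smooth muscle myosin, read 6.10, 6.18, 6.43, 6.02 and 6.46 after triolein, 6.76, 7.23, 7.36, 5.79 and 6.27 after trilinolein, and 7.68, 7.08, 7.82, 6.77 and 7.34 after trilinolenin in KO hearts. The KO trilinolenin hearts lay above the triolein hearts and trilinolein spread across both. The KO slope was 0.55 ± 0.13 (limma adjusted p = 0.0782) and its WT slope -0.28, a difference of 0.83 ± 0.18. Myh11 belongs to the smooth muscle and pericyte markers, whose median slope was 0.119 in KO and -0.121 in WT hearts. For atrial muscle markers the medians were 0.190 and -0.380. Endothelial, fibroblast and macrophage medians were negative in both genotypes. The part of these cells in the slope differences was not tested. The KO minus WT slope differences were -0.24 ± 0.05 for Cyp4b1, a cytochrome P450, and -0.40 ± 0.08 for Tmem71. The KO slope was the larger of the pair in 37 of the 47, and the median size was 0.261 in KO and 0.182 in WT; the 47 were chosen on their KO slope, so this is not a test of genotype. Over all tested genes the slopes correlated at 0.503 (Pearson) and 0.418 (Spearman) across genes, which are not independent replicates.

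**Figure D4:**
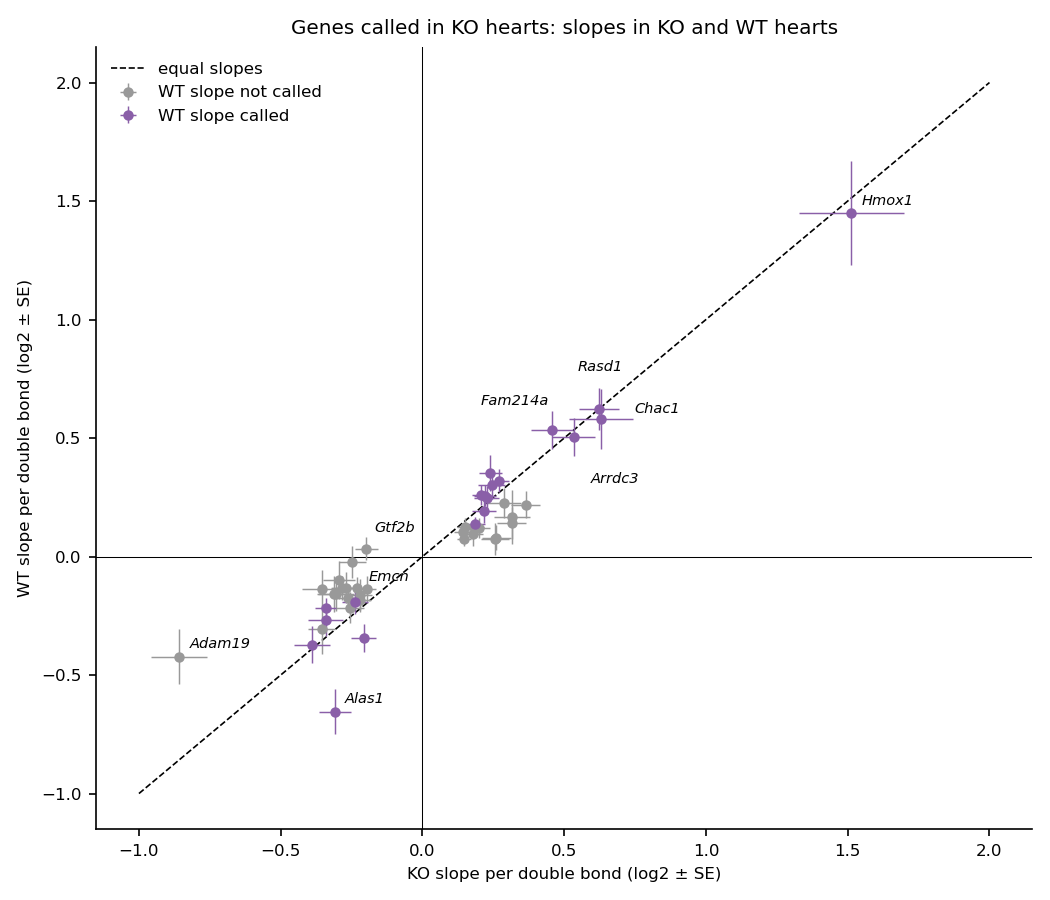
Slope per double bond in KO (horizontal axis) and WT hearts (vertical axis), log2 with SE bars, for the 47 genes called in KO; purple points were called in WT too, and the dashed line marks equal slopes. All points but Gtf2b share their sign, Hmox1 lies at 1.51 and 1.45, and Adam19 and Alas1 lie farthest from the line.

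The remaining called genes that the naming rule covers were Tspyl4, with a slope of 0.27 ± 0.03, Gpcpd1, a phosphodiesterase of glycerophosphocholine (0.26 ± 0.05, called in 8 of 15 fits, up to 0.0832), and Zfp810, a zinc finger protein with all 3 means under the brightness minimum (0.32 ± 0.06, called in 7 of 15 fits, up to 0.102). Those outside it, named after their values were seen, were the rises of Aox1, an aldehyde oxidase (0.24), Slc17a5, the lysosomal sialic acid exporter (0.24), Tmtc1 (0.23), Neat1, a long noncoding RNA of nuclear paraspeckles (0.21), Zfp445 (0.20), Art1, an ADP-ribosyltransferase (0.19), Plcb4, a phospholipase C (0.18), Ell, a factor of transcription elongation (0.18), Herc1 (0.15) and Klhl24 (0.14), and 1 gene with a clone name. The falls outside it were Slc4a4, a sodium bicarbonate cotransporter (-0.26), Dipk2a (-0.24), Fam126a (-0.23), Mtss1 (-0.22), Rnd3, a small GTPase (-0.22), Rgs19, a regulator of G protein signalling (-0.21), Gtf2b (-0.20) and Desi2 (-0.20). Among those outside the rule, the call was kept in 14 of 15 fits for Desi2, in 13 for Art1 and the gene with a clone name, in 12 for Mtss1, in 10 for Zfp445, in 9 for Rnd3 and Aox1, in 8 for Dipk2a, Fam126a, Plcb4 and Tmtc1, in 7 for Herc1, in 5 for Klhl24, Gtf2b and Ell, and in 3 for Rgs19 (adjusted p up to 0.112). Of the 5 bright probe sets of Klhl24, 1 had a slope of the other sign, at -0.0016. Of the 47, 7 had at least 1 of the 3 group means under the brightness minimum: Ror1, Zfp810, Siah2, Rgs19, Ell, Rasd1 and Slc17a5. Ror1, Siah2 and Zfp810 were bright in fewer than 3 of the 15 KO arrays and passed the filter only with other arrays counted.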

How the data were processed

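The deposited values are log2 signals that the authors made with GCRMA 2.2.0, per the submitters' processing notes; GCRMA corrects background, normalises by quantiles and joins probes into probe sets, and it can flatten dim signals. For the scanner software, the sources used here give no version. Of 45101 probe sets, 34945 carried 1 gene symbol, 932 several and 9224 none or were controls; only the first kind was used. Where several probe sets shared a gene (9010 of 18193 genes), the one of highest mean across the 55 arrays stood for it. Tests were limited to the 8237 genes (45.3%) with a linear signal over 20 in 3 or more of all 55 arrays.

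In R 4.3.3 with limma 3.58.1, 1 mean per oil was fitted to the 15 KO arrays (12 residual and 3.08 prior degrees of freedom). The slope was the trilinolenin minus triolein contrast over 2 double bonds, and p-values were adjusted by Benjamini-Hochberg over all tested genes, for pairs over 3 pairs too. KO and WT slopes were compared in 1 fit of 28 arrays. RNA integrity and single genes were tested by exact permutation over 756756 arrangements (smallest two-sided p 2.64e-06). Per the labels every array is a separate heart, no pair held more than 0.184% identical values, and the number of arrays limits the precision. On simulated data with 200 of 8237 genes changed (10 draws) the slope fit recovered 78.0%, 97.3% and 99.9% of slopes of 0.25, 0.5 and 1, with 5.28% false calls. The simulated noise was normal and independent between genes and arrays, and more genes were changed than were called here. Real arrays can deviate in many genes together, so these rates may not hold for them.

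The oils, gene lists, thresholds and naming rule were chosen with earlier results of these data known. The rule names the 12 largest called rises and falls, 28 index genes, called list members, the 3 largest called differences each way per pair, and the 3 genes of lowest p where a test called none. Of 678 listed genes 627 were on the array. Replicate numbers were checked for pairing: same-numbered arrays correlated at -0.173 to 0.209 and 3 of 15 pairs exceeded 0.1, so they were not used as a block. Alternatives were other brightness filters, probe set means, quantile normalization, array weights, a trended robust prior, a block, a 12-group fit, a linear regression and single arrays left out. Promoter windows come from RefSeq.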

Additional observations from a re-analysis of the deposited data

Results flagged for a closer look

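Single hearts that stood apart within their group of 5 were sought among 79 named genes in 228 groups of arrays, using the gap to the nearest other heart over the range of the group. A gap above the 95% critical value was found 13 times, and chance alone gives about 1 in 20 groups. In trilinolenin replicate 5, which gave 4 of the 13, Nqo1 was low at 6.61 against 7.90 to 7.95 in the others (gap over range 0.964), Acot1 was high at 5.27 against 3.76 to 4.02 (0.827), Mtus2 was low at 8.03 against 8.38 to 8.45 (0.830) and Iigp1 was low at 9.17 against 9.38 to 9.45 (0.737). This array also had the lowest array weight, 0.488. In other trilinolenin hearts Nr4a1 was high in replicate 1 (0.812) and Tspyl4 high in replicate 2 (0.754).

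In trilinolein replicate 4 Srebf1 was low (0.876) and Fkbp5 high (0.716), and in replicate 1 Aox1 was low (0.797). Among triolein hearts Gimap4 was low (0.779) and Gtf2b high (0.751) in replicate 5, Alas1 was low in replicate 3 (0.742) and Rnd3 high in replicate 1 (0.757).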

How the results depend on the processing

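All 47 called genes kept the sign of their slope under every alternative that tested them, and every list median moved by less than 1 SD. Over the 10 settings that left out no array, the call was kept least often for Rgs19 (1), Zfp810 and Ell (3 each) and Rnd3 (5). The number of called slopes ranged from 19 to 72 when arrays were left out in turn (rises 10 to 39, falls 8 to 39), and was 32 without a brightness filter (15 rises), 66 with a minimum of 100 on the linear scale (39 falls), 44 with the filter on the 15 arrays alone, 59 with probe set means, 46 after quantile normalization, 63 with array weights, 88 with a trended robust prior (40 rises, 48 falls), 83 with 12 groups (50 falls) and 33 by linear regression. With the replicate block it was 21 (9 rises, 12 falls). Same-numbered arrays did not deviate together, and 2 of 15 arrays correlated best with their own number.

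For trilinolein against triolein the 27 calls became 41 with array weights, 55 with the trended prior and 15 with the block (13 to 30 leaving out arrays). For trilinolenin against triolein the 38 became 18 without a filter, 62 with the trended prior and 13 with the block (13 to 38). For trilinolenin against trilinolein the 1 call became 0 at the minimum of 100 and with the block (1 to 3). Departure from a line, with 0 calls, gave 2 without a filter, 2 at the minimum of 100, 1 with the filter on the 15 arrays, 1 after quantile normalization, 1 with array weights and 2 with the trended prior (0 to 2). The WT calls, 99, became 51 without a filter, 52 with array weights and 43 with 12 groups (19 to 147). The KO minus WT calls stayed at 0 when arrays were left out. The Actb slope ranged from -0.0421 to -0.0273, with a p over 0.05 in 8 of 15 cases (up to 0.118), and that of Gapdh from -0.00618 to 0.00405. Genes with a group mean under the minimum have slopes of uncertain size. The cause of these shifts was not tested.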
